A study of Sus scrofa with 599 samples.

Results

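The 10 chemokine ligands and receptors CCL2, CCL3L1, CCL5, CCL8, CCL19, CCL21, CXCL10, CXCL12, CXCR4 and CCR2 were followed through adipose tissues (ATs) of adult female Bama pigs, a miniature breed. They were taken by symbol, as 10 of the 21280 protein-coding genes (PCGs) of the expression table, and each had 1 row. RNA-seq libraries of 38 NC, 158 WG and 40 WL samples, in situ Hi-C, which maps the folding of chromatin (240 samples), and ChIP-seq of H3K27ac, a histone mark of active enhancers, in pooled samples, were available. GOM is fat of the greater omentum, MAD that of the mesentery and RAD that behind the peritoneum, all visceral, and ULB is the upper layer of backfat, which is subcutaneous. NC pigs were kept on a normal diet, WG pigs gained weight on a high-fat diet, and WL pigs were put on severe caloric restriction after the same high-fat diet, so WL and WG pigs share that diet and NC pigs do not. The WL pigs were older at slaughter than the WG pigs, and time and restriction cannot be told apart. In GOM, MAD, RAD and ULB the RNA-seq libraries numbered 9, 12, 12 and 5 in NC, 45, 36, 39 and 38 in WG, and 10 each in WL.

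Chemokines are small secreted proteins that guide leukocytes through receptors coupled to G proteins. CCL2 and CCL8 attract monocytes, CCL2 through CCR2, and the CCL2 and CCR2 pair is known for the recruitment of macrophages into obese fat. CCL3L1 and CCL5 attract monocytes and T cells, through CCR1 among other receptors, and CXCL10 is induced by interferon and draws activated T cells through CXCR3. CCL19 and CCL21 are the ligands of CCR7 and keep T cells and dendritic cells in lymphoid tissue, CCL21 being a product of lymphatic endothelium and lymph node stroma. CXCL12, made by stromal cells, retains cells that carry CXCR4. The ATs are mixtures of adipocytes, stroma, vessels and leukocytes, and in bulk tissue more cells of a type and more RNA per cell cannot be told apart.

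In Sscrofa11.1, with genes placed by RefSeq, the inflammatory CC ligands lay on chromosome 12. CCL3L1 began at 39491999 and CCL5 at 39652731, both on the plus strand, and CCL8 at 40741970 and CCL2 at 40800013, both on the minus strand. CCL21, at 32093783, and CCL19, at 32110366, were neighbours on the plus strand of chromosome 10. CXCL10 began at 71695948 on the minus strand of chromosome 8, CXCL12 at 91516383 on chromosome 14, CXCR4 at 15663652 on chromosome 15 and CCR2 at 29368735 on chromosome 13, all 3 on the plus strand. The row taken as CCR2 is named so in the study's own tables, whereas the gene name table used here calls the same identifier CCR3, a neighbouring gene, so it is written as the CCR2 row. CCL3L1 is one of several nearly identical copies in other species, and how the estimates divide reads among such copies in the pig was not tested.

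Upstream sequences of 2 members are shown, for CCL19, the ligand that rose in WG in the 3 visceral ATs, and for CXCL10, the ligand induced by interferon. Each is the 200 bases before the RefSeq start, from the RefSeq copy of Sscrofa11.1, read 5′ to 3′ on the strand of the gene. Capitals mark matches to the motifs searched on both strands, which were an interferon-stimulated response element core (GAAA, any 2 bases, then GAAA), a kappaB motif (GGGA, any 2 bases, then TTCC), an AP-1 motif (TGANTCA) and a TATA box (TATAAA). They are CCL19 at chr10:32110166-32110365 (+) and CXCL10 at chr8:71695949-71696148 (−).
CCL19: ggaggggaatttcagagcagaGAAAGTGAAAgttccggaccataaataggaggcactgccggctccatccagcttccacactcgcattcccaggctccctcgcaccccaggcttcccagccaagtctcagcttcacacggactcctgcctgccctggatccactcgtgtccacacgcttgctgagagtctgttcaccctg
CXCL10: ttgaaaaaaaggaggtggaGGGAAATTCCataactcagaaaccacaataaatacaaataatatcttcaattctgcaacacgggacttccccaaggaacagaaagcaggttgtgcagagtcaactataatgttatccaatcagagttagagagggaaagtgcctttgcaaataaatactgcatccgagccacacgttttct
The element core of CCL19 lay 179 bases before the start, and 2.24% of the 19556 windows of this length held one. CXCL10 had the kappaB motif at 181 bases, and 1.9% of all windows held that motif. The AP-1 motif occurred in 4.21% of all windows and the TATA box in 7.69%, and neither was in the windows of CCL19 and CXCL10. A match is a description of letters, not a site in use.

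Some libraries stood apart and are named before the results. Less than 88% of the TPM, a transcript abundance scaled to length and to the total of the library, fell on PCGs in 40 libraries, namely 17 of 38 in NC, 6 of 158 in WG and 17 of 40 in WL, so the set moves with the diet. In MAD, 4 libraries summed to over 100 TPM on 8 B cell and follicle markers, namely WL MAD replicates 1, 6 and 7 (220, 634 and 356 TPM) and WG MAD replicate 31 (335 TPM). The other 232 libraries summed to between 7.62 and 69.7 TPM on the same markers, with a median of 20.0. The 3 WL MAD libraries were also in the low-share set. In WG GOM replicate 35, the shallowest library, CCL2, CCL21 and CXCL10 were listed at 0, and its T cell marker sum of 4518 TPM, nearly all from CD247, was the highest of all. That library is in the low-share set. Total estimated counts on PCGs ran from 3337098 to 22939419 per library, and no pair of libraries held identical values.

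All 10 genes were measured in every one of the 12 diet-by-depot groups (the plot of levels by library). By mean TPM CCL2, CXCL12 and CCL19 led, above at least 94.6% of PCGs, with CCL21 above 88.8% and CXCR4 above 80.9%. CCL8 was the weakest, with group medians from 0.634 TPM in NC MAD to 5.45 TPM in WL ULB, and CCL3L1 lay between 3.29 TPM in NC MAD and 14.5 TPM in WG RAD. For 6 members (CCL5, CCL19, CCL21, CXCL10, CXCL12 and CXCR4), WL MAD had the highest of the 12 medians. Its 3 libraries rich in B cell markers bear on this rank. In the other 7, CCL21 (median 75.7 TPM) lay below NC GOM (96.9 TPM). CXCL10 (8.84 TPM) lay below WG ULB (14.3 TPM) and other groups. CCL5, CCL19, CXCL12 and CXCR4 stayed highest.

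**Figure D1:**
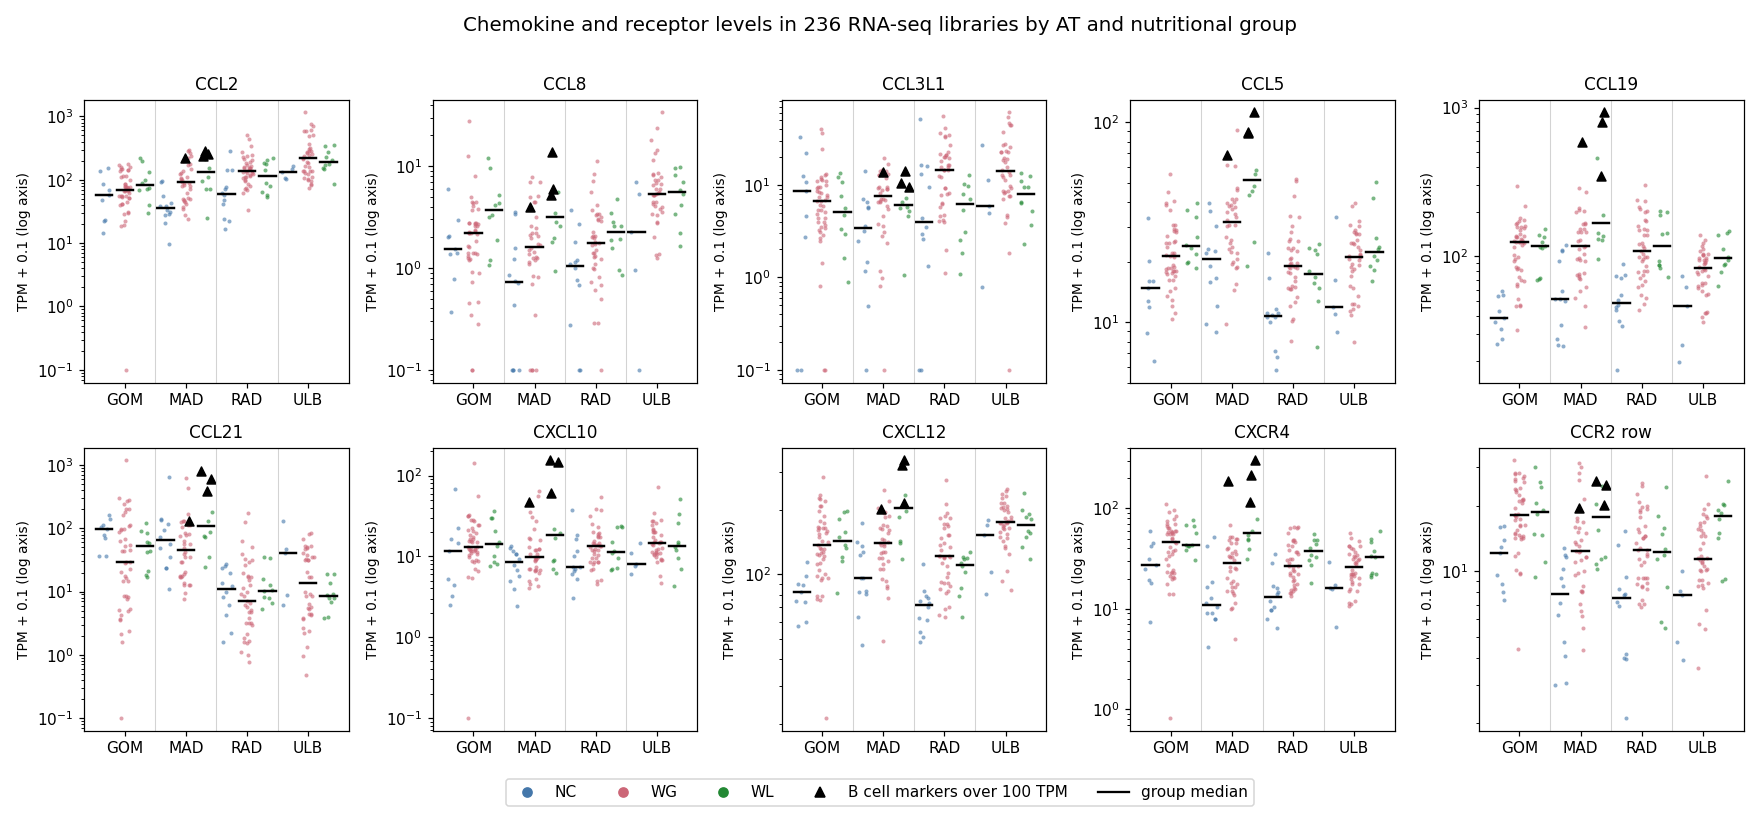
TPM of the 10 members on a log axis in each RNA-seq library, by diet (NC, WG, WL) and AT, after adding 0.1, with triangles for the 4 libraries rich in B cell markers and a line at each group median. The median of CCL21 is lowest in RAD in NC and WG and in ULB in WL, the median of CCL2 is highest in ULB in each diet, and a few WL MAD libraries stand above the rest of their group.

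From NC to WG, members that changed were all higher in WG. Of 40 tests (10 genes in 4 ATs) 10 were called by edgeR at an adjusted p under 0.05 and a fold change above 1.5, and 0 were called lower (0 also by DESeq2, and at an unadjusted p under 0.05), against 6.37% of all gene tests called higher and 7.89% lower. RAD held 6 of the 10 calls, MAD 3 and GOM 1. The median log2 fold change of the members was 0.66 in RAD and 0.72 in MAD, against 0.00 and −0.01 over all genes tested. The share of all genes called higher was 7.1% for RAD, 5.38% for MAD, 12.2% for GOM and 0.507% for ULB. In ULB, with 5 NC libraries, edgeR called 0 members, 2 had an unadjusted p under 0.05, and DESeq2 called 1. The median log2 fold change of the members was 0.75 there.

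**Figure D2:**
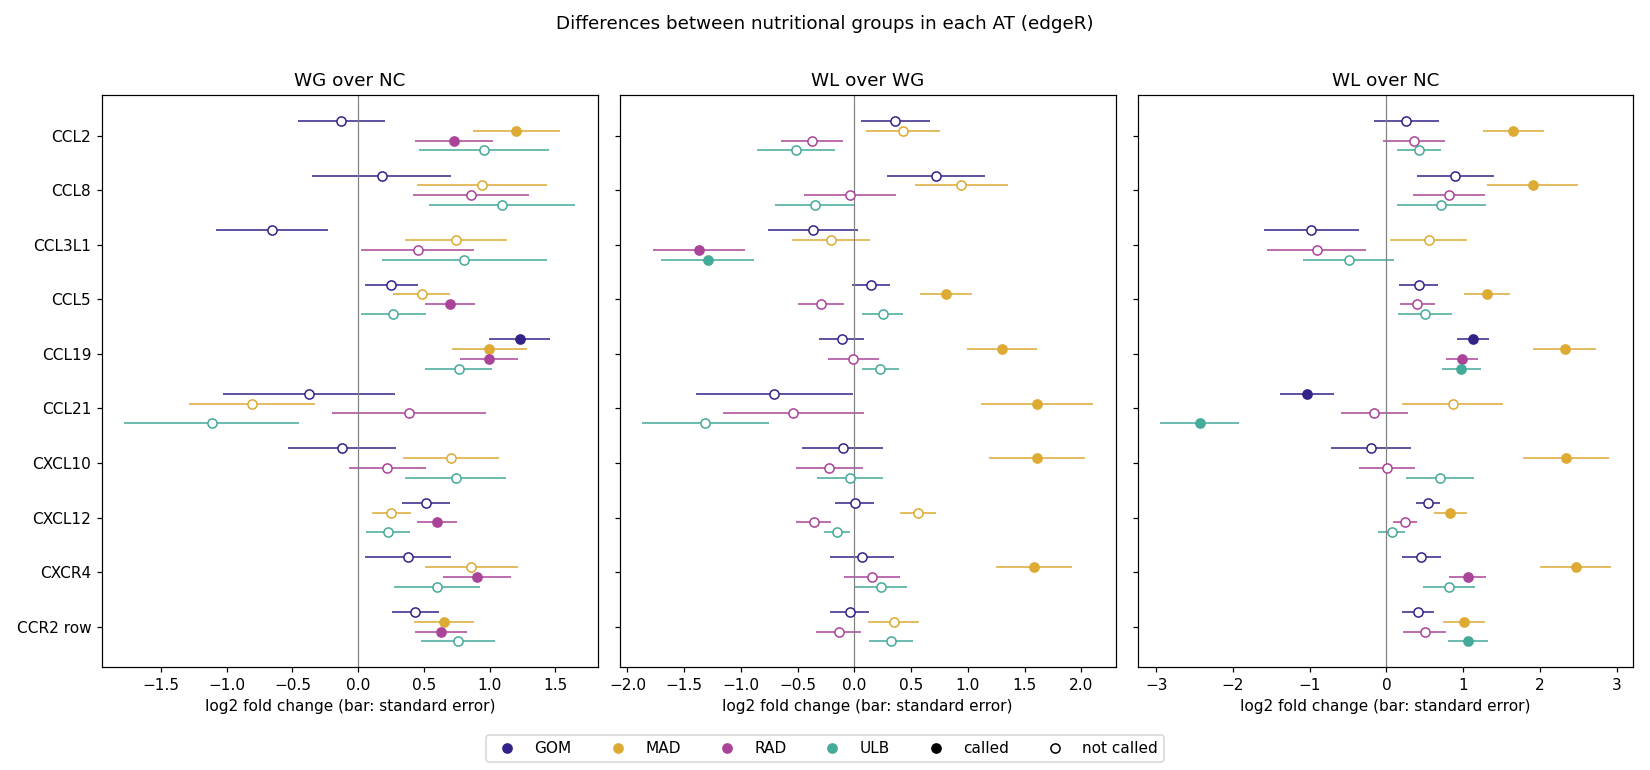
Log2 fold change of each member with its standard error, for NC to WG, WG to WL and NC to WL in each AT, with filled points for calls by edgeR. Calls from NC to WG sit in GOM, MAD and RAD and all lie above 0, and the higher calls from WG to WL all lie in MAD.

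CCL19, which attracts CCR7-bearing lymphocytes and dendritic cells, rose in WG in the 3 visceral ATs. In GOM its TPM was 25.6 to 58.7 in NC (median 38.5) and 31.8 to 298 in WG (median 125). Of the 45 WG libraries 40 lay above the highest NC library, and the log2 fold change was 1.23 ± 0.23 (SE, adjusted p = 3.91e-05). In MAD the range moved from 24.8 to 118 (median 52.0) to 33.3 to 589 (median 117), a log2 fold change of 1.00 ± 0.29 (adjusted p = 0.0115). In RAD it moved from 17.2 to 89.5 (median 49.0) to 43.9 to 302 (median 108), a log2 fold change of 0.99 ± 0.22. Groups overlapped in all 3 ATs, most in MAD, where 17 of 36 WG libraries exceeded the highest NC library. In NC ULB the 5 libraries read 46.3, 19.4, 74.1, 25.4 and 62.1 TPM, against 36.4 to 138 (median 84.1) in WG, and the change of 0.77 ± 0.25 missed the threshold (adjusted p = 0.0937). Without the low-share libraries the GOM change was 1.02 (adjusted p = 0.129) and the RAD change 0.83 (adjusted p = 0.0649), neither called, while the MAD call was kept. In those fits 2 NC libraries remained in GOM, 10 in MAD and 6 in RAD.

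CCL19 was also higher in WL than in NC in all 4 ATs, a comparison that shares its NC libraries with the one above. In GOM the groups did not overlap, since the highest NC library had 58.7 TPM and the lowest WL library 69.5 TPM (log2 fold change 1.13 ± 0.21, adjusted p = 0.000111; 15.4% of all genes were called higher in that comparison). In MAD the log2 fold change was 2.32 ± 0.42. It was 0.98 ± 0.21 in RAD, where 10.2% of all genes were called higher, and 0.98 ± 0.25 in ULB, where 5.39% were. The MAD and RAD calls held under every alternative run, and MAD fell to 1.28 (adjusted p = 0.00429) without the B cell-marker-rich libraries. The GOM and ULB changes lost the call without the low-share libraries (0.75 and 0.65). In GOM 2 NC and 4 WL libraries were then left, and in ULB 3 and 7. From WG to WL, CCL19 differed by 0.23 in ULB, −0.01 in RAD and −0.11 in GOM, with no call.

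CCL21, the partner of CCL19 on chromosome 10 and at CCR7, did not pass the test from NC to WG in any AT. It fell from NC to WL in GOM and ULB, where 20.7% and 9.37% of all genes were called lower. In GOM the TPM ran from 35.9 to 163 (median 96.9) in NC and from 16.8 to 121 (median 51.9) in WL (log2 fold change −1.03 ± 0.35, adjusted p = 0.0159). In ULB the NC libraries read 8.82, 47.6, 6.04, 40.4 and 130 TPM and the WL libraries 3.76 to 19.01 (median 8.31), a log2 fold change of −2.43 ± 0.51 (adjusted p = 0.00428). Of the NC ULB libraries 3 lay above the whole WL range and the other two inside it. The GOM call was lost without the low-share libraries (−1.12, adjusted p = 0.181), a fit with 2 NC and 4 WL libraries. In WG GOM CCL21 spread from 0 to 1189 TPM (median 29.4), the widest range of any member in a group. Over NC, WG and WL the lymphatic endothelial marker sum, with 5 of 5 markers measured, had medians of 120, 74.0 and 86.0 TPM in ULB. In GOM the medians were 162, 132 and 167 TPM. The sum hides opposite moves. From NC to WL in GOM the medians of PROX1 (3.59 to 2.51 TPM) and PDPN (48.8 to 24.7) fell. Those of LYVE1 (108 to 127), FLT4 (4.64 to 11.6) and TBX1 (0.658 to 1.74) rose. In ULB FLT4 rose (2.54 to 4.42) and the other markers fell. The part of these markers in the CCL21 changes was not tested.

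CCL2, the monocyte attractant that binds CCR2, rose from NC to WG in MAD and RAD. In MAD the TPM was 9.42 to 95.9 in NC (median 35.9) and 24.1 to 296 in WG (median 90.8), and 33 of 36 WG libraries lay above the NC median (log2 fold change 1.20 ± 0.33, adjusted p = 0.00858). In RAD it was 16.7 to 280 (median 58.6) against 33.1 to 507 (median 136), with wide overlap (0.73 ± 0.30, adjusted p = 0.05). The RAD call sat at the threshold and was lost with DESeq2 size factors in edgeR, with a term for the low-share set and without that set, where the change was 1.02 (adjusted p = 0.0801). In GOM the change was −0.13 ± 0.33. CCL8, a monocyte attractant encoded beside CCL2, had positive changes of 0.18 to 1.09 in the 4 ATs, none called, at levels where single libraries were listed at 0.

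Macrophage markers moved with the diet as well. Their sum over 12 of 12 markers had group medians of 648 to 1308 TPM in NC, 1222 to 1847 TPM in WG and 1294 to 1764 TPM in WL. From NC to WG 11 of 11 tested macrophage markers were higher in MAD and 6 of 11 in RAD, while 0 were higher in GOM and in ULB. Their part in the higher CCL2 in MAD and RAD was not tested.

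CCL5, a ligand made by T cells, rose from NC to WG in RAD. NC RAD libraries had 5.69 to 22.01 TPM (median 10.7) and WG RAD libraries 7.94 to 51.9 (median 19.01), and 36 of 39 lay above the NC median. The log2 fold change of 0.70 ± 0.19 (adjusted p = 0.00413) kept its call in every alternative run. The T cell marker sum in RAD had medians of 61.5 TPM in NC and 76.8 TPM in WG, and 1 of 10 tested T cell markers was higher and 1 lower there. CCL3L1, a ligand of CCR1, was the member that fell from WG to WL. In RAD it went from 1.01 to 55.6 TPM (median 14.5) in WG to 0.985 to 12.7 (median 6.06) in WL, a log2 fold change of −1.37 ± 0.41 (adjusted p = 0.0197). In ULB it went from 0 to 60.5 (median 13.9) to 2.20 to 13.5 (median 7.93), −1.29 ± 0.41 (adjusted p = 0.0231). No WL library of either AT reached the WG median, although the groups overlapped at the low end. The share of genes called lower was 4.13% in RAD and 4.9% in ULB. The RAD call was kept under every alternative run, and the ULB call was lost with a term for the low-share set (−1.30, adjusted p = 0.0674).

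CXCL12, the stromal ligand of CXCR4, rose from NC to WG in RAD, from 48.1 to 111 TPM (median 71.7) to 62.8 to 274 (median 121), with a log2 fold change of 0.60 ± 0.15. That is just past the fold threshold, and DESeq2, with 0.58, did not call it. The call was kept in 3 of 6 alternative runs. In GOM the change of 0.52 ± 0.18 had an adjusted p of 0.0205 but stayed under the fold threshold. CXCL10, the interferon-induced ligand, was not called in any AT from NC to WG. Its NC and WG ranges in RAD were 2.92 to 37.3 TPM and 4.46 to 53.9 TPM.

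CXCR4, carried by lymphocytes and many other leukocytes, rose in WG RAD, from 6.28 to 34.9 TPM (median 12.9) to 13.3 to 66.0 (median 26.7). All 39 WG libraries lay above the NC median and 15 above the highest NC library (log2 fold change 0.90 ± 0.26, adjusted p = 0.00526). The change was 1.06 ± 0.24 from NC to WL in RAD. Both calls were lost without the low-share libraries, at 0.67 and 0.77. The CCR2 row rose from NC to WG in MAD (0.65 ± 0.23, adjusted p = 0.0416) and in RAD (0.63 ± 0.20, adjusted p = 0.0109), and from NC to WL in MAD and in ULB. In ULB the NC libraries had between 3.80 and 9.94 TPM (median 7.63) and the WL libraries 8.89 to 25.9 (median 17.8), of which 8 of 10 lay above the highest NC library (1.06 ± 0.26, adjusted p = 0.0102). The ULB and RAD calls of the CCR2 row, and that from NC to WL in MAD, were lost without the low-share libraries. Its call from NC to WG in MAD was lost without the marker-rich library (0.63, adjusted p = 0.0517) and with a term for the low-share set (0.61, adjusted p = 0.0783).

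From WG to WL, 5 of 40 tests were called higher and 2 lower, against 4.08% and 5.24% of all gene tests, and every higher call lay in MAD, where 8.26% of all genes were called higher. The 5 genes were CCL19 (1.303 ± 0.31), CCL21 (1.61 ± 0.49), CCL5 (0.81 ± 0.23), CXCL10 (1.61 ± 0.42) and CXCR4 (1.58 ± 0.33). The higher values sat in 3 libraries. In WL MAD replicates 1, 6 and 7, those rich in B cell markers, CCL21 read 388, 818 and 606 TPM, and the other 7 WL MAD libraries had 24.8 to 183 (median 75.7). CXCL10 read 60.8, 146 and 154 TPM, against 6.07 to 21.6 (median 8.84). CXCR4 read 116, 300 and 215 TPM, against 31.3 to 78.9 (median 49.5). For these 3 genes, and for CCL5 (87.9 to 112 TPM against 19.1 to 58.0), CCL2 (239 to 281 TPM against 24.5 to 212) and CCL3L1 (9.39 to 14.04 TPM against 0.952 to 7.09), the 3 libraries lay above all 7 others. CCL19 overlapped, with 347, 805 and 927 TPM against 96.4 to 456 (median 137). WG MAD replicate 31 had the highest CCL19 (589 TPM) and CXCR4 (187 TPM) of its group, while its CCL21 (131 TPM) lay inside the range of the others.

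The same 3 libraries had T cell marker sums of 518, 1103 and 1055 TPM against 80.5 to 136 TPM in the other 7, and sums of lymph node stroma markers of 93.6, 232 and 205 TPM. In WL MAD over all 10 libraries the medians of the T cell and B cell sums were 110 and 25.9 TPM, with 10 of 11 and 8 of 10 markers measured. Without the 4 marker-rich libraries, an alternative chosen after seeing the data, edgeR called 0 of the 10 members from WG to WL in MAD, and 1 had an unadjusted p under 0.05. The changes were then 0.47 for CCL19, 0.07 for CCL21, 0.33 for CCL5, −0.23 for CXCL10 and 0.80 for CXCR4, of which CXCR4 had the lowest adjusted p (0.0649). Leaving out the low-share libraries, which include 6 of the 10 WL MAD libraries, or adding a term for that set also left 0 calls, with 0 and 2 members at an unadjusted p under 0.05. Without the 4 marker-rich libraries 2.74% of all genes were still called higher.

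**Figure D3:**
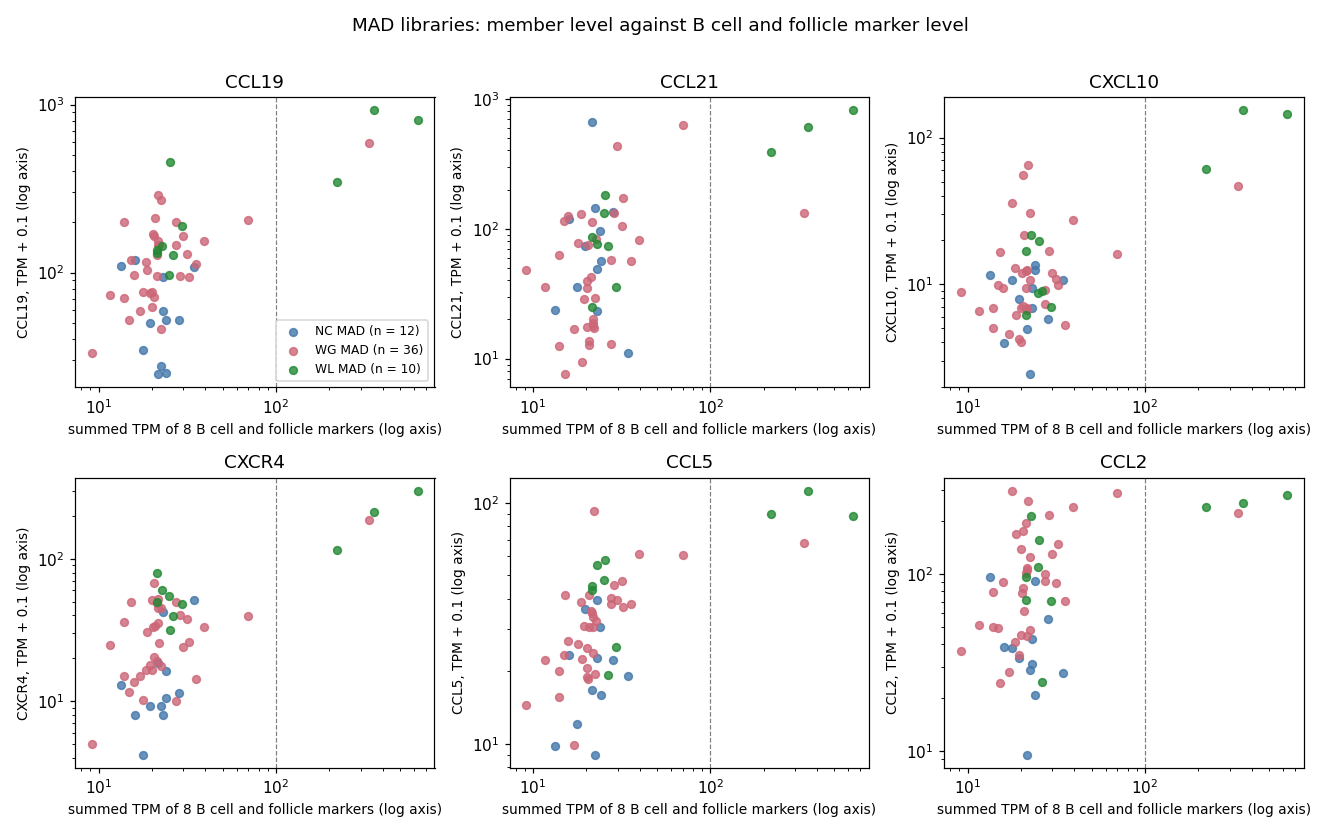
TPM (plus 0.1) of 6 members in the NC, WG and WL libraries of MAD against the summed TPM of 8 B cell and follicle markers, both on log axes. In all, 3 WL MAD libraries and 1 WG MAD library lie beyond 100 TPM of marker sum, and in the WL MAD libraries CCL21, CXCL10 and CXCR4 are highest there.

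The WG to WL change differed among the 4 ATs for 6 of 10 members in 1 fit over all 12 groups, a call made for 6.41% of all genes. The adjusted p of this interaction was 0.00238 for CCL19, 0.00522 for CXCL12, 0.0123 for CXCR4, 0.0137 for CXCL10, 0.0271 for CCL21 and 0.0384 for CCL5. For NC to WG it was called for 0 of 10 members, against 8.8% of all genes, with 1 at an unadjusted p under 0.05, so the calls in some ATs and not in others are not shown to differ. Without the 4 marker-rich libraries, or without the low-share libraries, 0 of the 6 kept the call, with 1 and 0 members at an unadjusted p under 0.05.

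From NC to WL, 13 of 40 tests were called higher and 2 lower, against 11.6% and 16.2% of all gene tests. This comparison shares its libraries with both steps above. MAD held 8 of the 13, all members but CCL3L1 and CCL21, where 15.2% of all genes were called higher. Besides CCL19, the log2 fold changes in MAD were 2.46 for CXCR4, 2.34 for CXCL10, 1.91 for CCL8, 1.66 for CCL2, 1.31 for CCL5, 1.01 for the CCR2 row and 0.83 for CXCL12. Without the marker-rich libraries, where 9.73% of all genes were called higher, CCL19, CXCR4 (1.41), CCL2 (1.06) and CCL5 (0.74) stayed called and CXCL10 was at 0.35. Without the low-share libraries CCL19 alone stayed called in MAD, at 1.41, and CXCL10 was at −0.01.

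Differences among ATs within a diet were called in 46 of 179 tests, 22 higher and 24 lower in the later of GOM, MAD, RAD and ULB, against 11.3% of all gene tests. The tests did not pair ATs of the same pig. CCL21 separated the ATs most. In NC it ran from 35.9 to 163 TPM in GOM and from 1.503 to 27.1 TPM in RAD, without overlap (log2 fold change −2.83 ± 0.41; 19.5% of genes were called in that comparison). In WL it ran from 24.8 to 818 TPM in MAD and from 3.76 to 19.01 TPM in ULB, again without overlap (−4.74 ± 0.64; 14.4% of genes were called), and −3.13 without the marker-rich libraries. In WG the ranges overlapped, yet RAD (median 6.94) and ULB (median 13.3) were lower than GOM (29.4) and MAD (45.4) in all 4 comparisons, by 1.78 to 2.06 on the log2 scale. Lymphatic endothelial marker sums in RAD had medians of 71.5, 59.7 and 87.2 TPM in NC, WG and WL against 162, 132 and 167 TPM in GOM, and RAD was the lowest AT in NC and WG but not in WL, where ULB had 86.0 TPM. Their part in the CCL21 differences was not tested.

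The medians of CCL2 and CCL8 were highest in the subcutaneous ULB in each diet. In WG both genes were called higher in ULB than in all 3 visceral ATs. In NC only CCL2 against MAD was called, and in WL only CCL2 against GOM and CCL8 against RAD. In WG, CCL2 had medians of 69.5, 90.8, 136 and 217 TPM in GOM, MAD, RAD and ULB, and each of those neighbours differed except MAD and RAD. The call between GOM and MAD was kept in 4 of 7 alternative runs. Without the marker-rich WG MAD library it was lost (MAD minus GOM 0.55, adjusted p = 0.0506). ULB exceeded GOM by 1.97 ± 0.21 (adjusted p = 1.69e-13), and that call held under every alternative run. In NC, CCL2 was 9.42 to 95.9 TPM in MAD and 149, 133, 101, 164 and 108 TPM in the ULB libraries, which did not overlap (1.63 ± 0.37; 7.73% of genes were called). CCL8 in WG ULB (1.16 to 33.6 TPM, median 5.28) exceeded the 3 visceral ATs by 1.45 to 1.66, calls that held under every alternative run. CCL3L1 was higher in WG RAD and WG ULB than in WG GOM and WG MAD, by 1.03 to 1.27. CCL5 had its highest median in MAD in each diet, and in WL its medians were 23.97, 51.5, 17.3 and 22.3 TPM in GOM, MAD, RAD and ULB. Without the marker-rich libraries, its WL call between MAD and RAD was kept (RAD minus MAD −1.185). Those with GOM (MAD minus GOM 0.69, adjusted p = 0.0765) and ULB (ULB minus MAD −0.65, adjusted p = 0.176) were lost. In WG, MAD minus GOM was then 0.54, RAD minus MAD −0.58 and ULB minus MAD −0.56. These WG differences kept an adjusted p under 0.05 but fell under the fold threshold, so their calls were lost. The sum of progenitor and fibroblast markers, 7 of 7 measured, had its highest medians in ULB in NC (3490 TPM) and WG (3097 TPM). The single markers were split. In WG, DCN (1723 TPM), COL1A1 (686 TPM) and PDGFRB (79.7 TPM) were highest in ULB. PDGFRA (69.6 TPM), LUM (279 TPM), PI16 (28.8 TPM) and DPP4 (3.09 TPM) were lowest there.

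The rest of the chemokine system was read from lists of 25 further ligands and 20 further receptors, of which 16 and 16 had rows. From NC to WG, of 13 ligands tested per AT, 1 rose and 4 fell in GOM, 3 rose and 2 fell in MAD, and 3 rose and 2 fell in RAD. In ULB edgeR called 0, with 1 at an unadjusted p under 0.05. Over all genes in the same fits, 12.2% rose and 14.5% fell in GOM, 5.38% and 5.29% in MAD, and 7.1% and 9.6% in RAD. Of the receptors, 2 of 12 rose and 2 fell in GOM, 4 of 11 rose in MAD, and 3 of 11 did in RAD. In ULB 1 of 9 rose. The most abundant were the scavenging receptors ACKR4 (mean 230 TPM) and ACKR1 (66.7 TPM) and the ligands CCL14 (96.5 TPM) and CXCL2 (92.5 TPM), a neutrophil attractant.

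CCR1, a receptor for CCL3L1 and CCL5, was among those that rose. It went from medians of 8.62, 5.15 and 5.66 TPM in NC GOM, MAD and RAD to 22.3, 20.1 and 25.3 TPM in WG, with log2 fold changes of 0.92, 1.82 and 1.51. ACKR1 rose in the 3 visceral ATs, by 0.69, 0.68 and 1.01. CCL4, an attractant of monocytes and T cells, rose in the same ATs, by 0.94, 0.66 and 0.83, and the neutrophil attractant CXCL8 in MAD and RAD, by 1.15 and 0.96.

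Some further ligands went down. CCL16 fell in GOM, MAD and RAD from NC to WG, by 1.07, 1.40 and 2.20 on the log2 scale, and XCL1, a ligand made by T and natural killer cells, fell in GOM and RAD, by 0.85 and 0.78. CCL14 fell from NC to WL in all 4 ATs, by 1.81, 0.97, 1.40 and 0.98 in GOM, MAD, RAD and ULB. From WG to WL, CCL25 fell in GOM and ULB, by 0.65 and 1.01, and the scavenging receptor ACKR2 in GOM and MAD, by 1.00 and 1.28. In MAD 6 of 13 further ligands and 6 of 14 further receptors were higher in WL than in WG, where 8.26% of all genes were. Without the marker-rich libraries edgeR called 0 of 13 ligands and 0 of 13 receptors higher, with 6 and 2 at an unadjusted p under 0.05. CCR7, the receptor of CCL19 and CCL21, was higher with those libraries included, with medians of 1.31 TPM in WG MAD and 3.04 TPM in WL MAD.

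Likeness was measured over all RNA-seq libraries as Pearson's r of log2(TPM + 1) after the mean of each group was taken off, among 13843 PCGs, as a description in which libraries share depth and cell makeup. CCL21 was most like NR2F2 (0.786), a regulator of venous and lymphatic endothelium, then SATB1 and BCOR. CCL19 was most like RHOH (0.741), a GTPase of blood cells, and CXCR4 most like STK17B (0.767) and CYTIP (0.766). The CCR2 row was most like CASP1 (0.775), and its r with HLA-DRA was 0.720, and CXCL10 was like CXCL9 (0.730), also induced by interferon, behind 2 genes without a symbol. CCL2 was most like PLAUR (0.640) and CCL3L1 most like TIMP1 (0.597). The leading genes were SEMA4A (0.707) for CCL5, ARHGAP4 (0.576) for CCL8 and CNN2 (0.601) for CXCL12. Among members, CCL19 and the CCR2 row had the highest r (0.619) and CCL2 and CCL3L1 the next (0.559). CCL19 and CCL21, which share a receptor and a locus, had an r of −0.04.

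The A-B index of the 20-kb bin at each gene's start, positive in the open compartment A and negative in compartment B, differed in sign among the members (the plot of index by sample). CXCL10, CXCR4 and CCR2 were above 0 in all 240 Hi-C samples. CCL2 and CCL8 were below 0 in all of them, with group medians from −3.74 to −2.23 for CCL2 and from −4.18 to −2.53 for CCL8. CCL2 begins 13 bases into its bin, and its body lies in the bin before. CXCL12 was above 0 in 3 WG ULB samples and 1 WL RAD sample and below 0 in all others. CCL3L1 and CCL5 changed sign with the AT. CCL5 was above 0 in all 12 NC, 40 WG and 10 WL samples of RAD, and in 1 of 9, 13 of 46 and 2 of 10 samples of GOM.

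Chromosome 10, which carries CCL19 and CCL21, had a feature of its own. In 9 samples, 5 of 46 WG GOM and 4 of 40 WG RAD, the index along that chromosome ran opposite to the median profile (r from −0.915 to −0.695). In those 9, CCL19 lay between −4.75 and −2.46 and CCL21 between −5.34 and −3.18. In the other 231, CCL19 lay between 0.501 and 6.80, and CCL21 was below 0 in 1 sample. Results for this pair are therefore given with and without the 9 samples, a choice made after seeing the data.

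Between diets, the index of members differed in 12 of 120 tests (limma, adjusted p under 0.05 and a difference above 0.75), all higher in the later of NC, WG and WL, against 5.92% of bins called higher and 1.22% lower. In RAD from NC to WL, where 15.2% of bins were called higher, CXCL12 went from −2.12 to −1.05 (median −1.37) to −1.38 to 0.0572 (median −0.401), a difference of 1.00 ± 0.16. CCL19 differed there by 1.09 ± 0.25, CCL2 by 0.90 ± 0.23 and CCL8 by 0.89 ± 0.23. The median over all bins moved by 0.28 in the same comparison. CXCR4 was higher in WG than in NC in RAD (0.86 ± 0.17) and ULB (0.93 ± 0.27), where the median over all bins moved by 0.14 and 0.25. CCL19 in RAD from WG to WL differed by 2.33 ± 0.82, and by 1.54 ± 0.38 (adjusted p = 0.00559) without the 9 samples. With the index quantile normalized between samples, 1 member test was higher (CCL19 in RAD from WG to WL) and 5 were lower (CXCL10 in MAD and RAD, CCL5 and CCR2 in RAD from NC to WL, and CCL5 in RAD from WG to WL). The split of higher and lower calls therefore rests on the scaling.

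Between ATs the index of members differed in 42 of 180 tests, 37 higher and 5 lower in the later AT, against 6.18% and 5.24% of bins. GOM had the lowest index of CCL3L1 and CCL5 in each diet. For CCL5 in WG, GOM ran from −2.07 to 0.789 (median −0.427) and RAD from 0.0221 to 2.49 (median 1.17). CCR2 was lower in GOM than in RAD and ULB in NC and WG, and CCL2 was lower in GOM than in RAD in all 3 diets. For each gene the call between GOM and RAD was kept in 2 of 4 alternative runs in NC and 3 of 4 in WG. The calls of CCR2 between GOM and ULB, and that of CCL2 in WL, were kept in every run. CCL21, whose expression separated the ATs, had an index difference called in 1 comparison, WG MAD against WG RAD, which lost its call without the 9 samples (−0.55). CCL19 was lower in WG RAD than in WG MAD and WG ULB, by 1.45 in both, and these calls were also lost without them, at −0.66 (RAD minus MAD) and 0.66 (ULB minus RAD). Its difference between WG GOM and WG RAD, which was not called, was then called lower in RAD (−0.75, adjusted p = 0.00213).

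**Figure D4:**
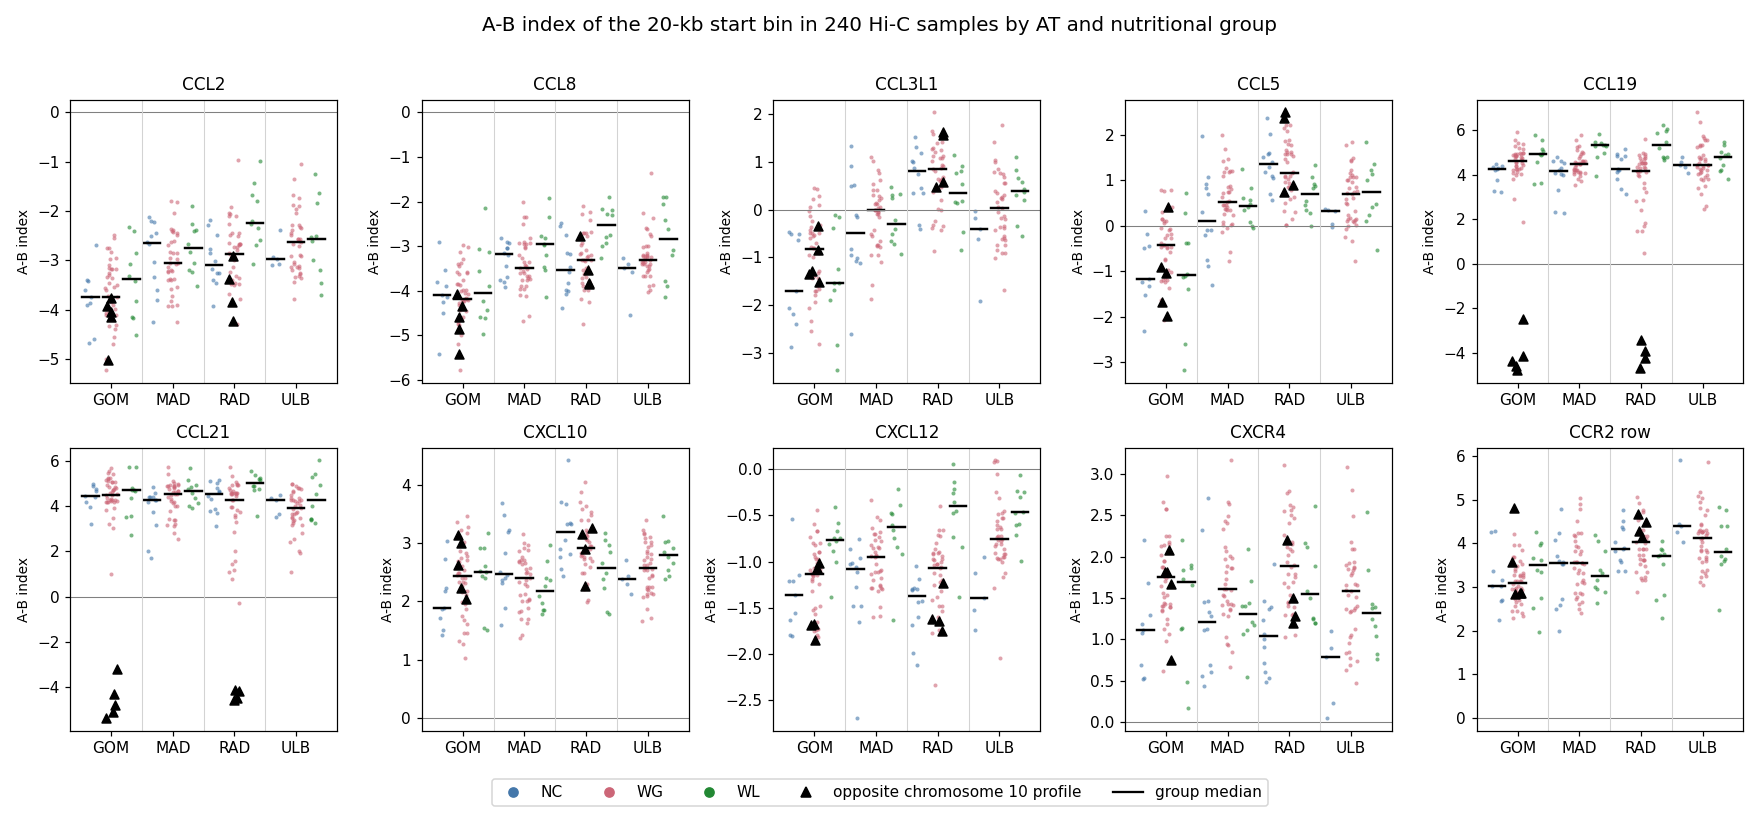
A-B index (no unit) of the start bin of each member in the 240 Hi-C samples by diet and AT, with a line at 0, a line at each group median and triangles for the samples with an opposite chromosome 10 profile. CCL2 and CCL8 lie below 0 and CXCL10, CXCR4 and CCR2 above 0 throughout, and the CCL19 and CCL21 points below 0 in WG GOM and WG RAD are, but for 1, the 9 samples with an opposite chromosome 10 profile.

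H3K27ac regions lay within 10 kb of the members in 173 of 180 pairs of a gene and a pooled table, with 18 tables for the groups and the subgroups of WG. Tables pool 1 to 11 samples, so no test was made. Between 65.2% and 85.6% of all genes had a region within 10 kb in a table. CCL5, CXCL12, CXCR4 and CCR2 had one in all 18 tables. The 7 gaps were CCL3L1 in 2 WG GOM subgroups, CCL2 in 1 WG ULB subgroup, CCL8 in WL RAD, CCL19 and CCL21 in 1 WG RAD subgroup, and CXCL10 in 1 WG ULB subgroup.

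Super-enhancers, the strongest stitched regions of a table, lay within 10 kb of CCR2 in 7 tables, CCL2 in 6, CCL19 and CCL21 in 4 each (NC MAD, NC RAD, NC ULB and WL MAD), and CCL5 and CCL8 in 3 each. Of all genes, 5.72% to 27.8% had a super-enhancer within 10 kb in a table. They were never near CCL3L1, CXCL10, CXCL12 or CXCR4. The region at CCL19 and CCL21 in WL MAD spanned chr10:32091000-32165199 and ranked 564, in the top 2.22% of its table, with a signal of 4.09 times the input. The WL MAD pool was made of replicates 4, 5 and 7, and a replicate 7 is among the marker-rich RNA-seq libraries of that group. In NC MAD the region spanned chr10:32089600-32162599 and was also a super-enhancer (top 3.20%, 2.08 times the input). In the WG MAD tables the strongest region near CCL21 ranked within the top 11.09% to 27.4%. CCL2 and CCL8 shared 1 region in WL MAD, WL ULB and a WG RAD subgroup. In WL ULB it spanned chr12:40730400-40850199 and was their strongest, in the top 1.31% of the table at 3.24 times the input. CXCL10 had the lowest-ranked regions, the best of them at 37.6% of its table. They were short, at 2799 to 12399 bases against 39199 to 120399 for CCL2. Their signal was 1.06 to 3.75 times the input, against 1.36 to 3.24 times for CCL2, so they were low by rank and not by this ratio. The authors used a limit of 2000 bases around gene starts to exclude promoters, but stitched regions can still span a start. The WL MAD region above covered the starts of CCL19 and CCL21, and the WL ULB region those of CCL2 and CCL8. Promoter signal may therefore be in them.

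**Figure D5:**
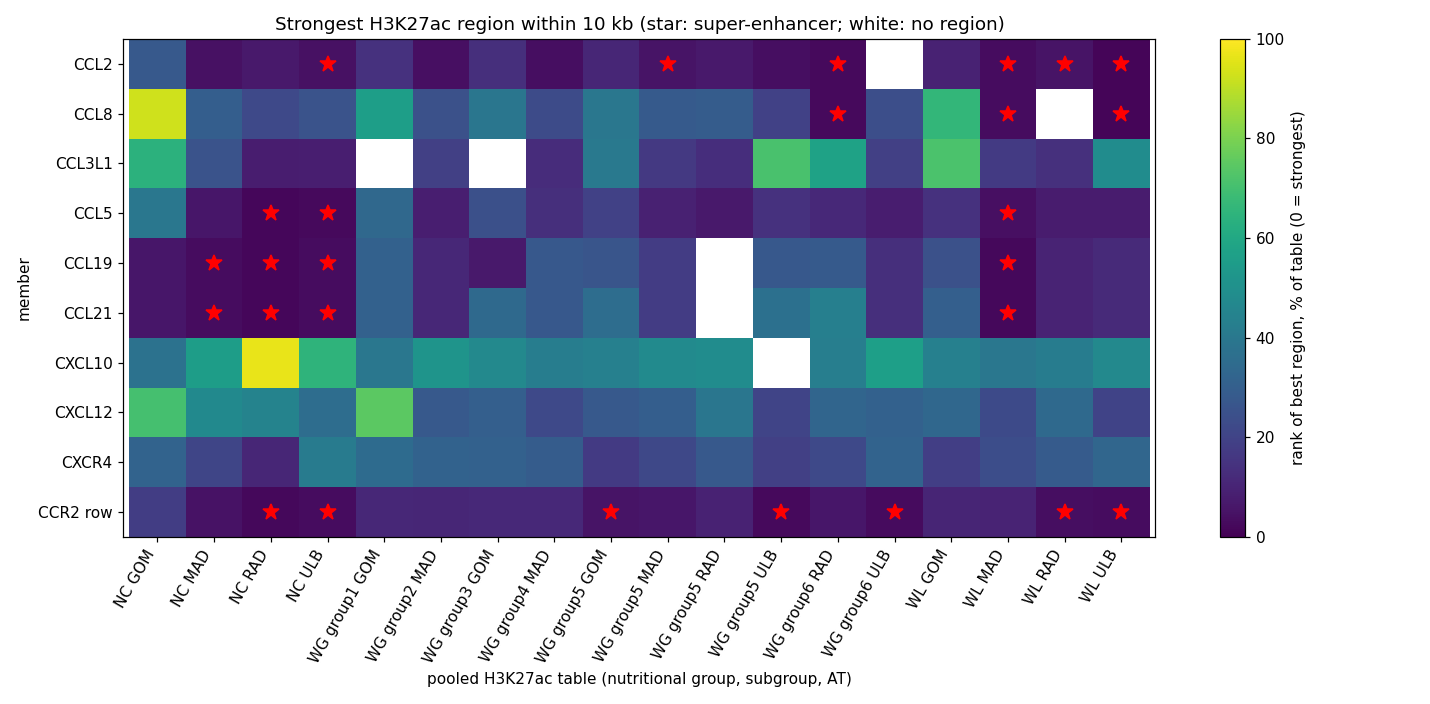
Rank of the strongest H3K27ac region within 10 kb of each member in 18 pooled tables, as a percent of the regions of the table (0 is strongest), with stars for super-enhancers and white for no region. CCR2, CCL2 and CCL5 hold highly ranked regions in most tables, and no region of CXCL10 ranks better than 37.6%.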

How the data were processed

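RNA-seq and Hi-C samples were grouped by diet and AT from the deposited labels, and 9 further columns in each table that match no label were not used. The authors estimated abundance with kallisto 0.43.0 and summed it by gene. The deposited table holds their expected counts, of which 17.8% are 0 and no other value is whole (within 1e-09), and these were rounded for tests. The deposited TPM tables gave levels and the detection limit. The authors made the A-B index, a score per 20-kb bin without unit, from balanced contact matrices normalized between samples. Its precision is known only from the spread between samples. They mapped H3K27ac reads with BWA 0.7.15 to Sscrofa11.1, removed duplicates with SAMtools 1.3.1 and called peaks with SICER. ROSE stitched these into tables of pooled samples, with the deposited signal in ChIP and input and a setting meant to exclude promoters. The last index bin ended within 1 bin of the reference length on all 18 autosomes.

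PCGs above 0.5 TPM in 80% of the libraries of a group were tested with edgeR 4.0.16 (TMM, quasi-likelihood) in R 4.3.3, p-values being adjusted by Benjamini-Hochberg over all genes tested. A call needed an adjusted p under 0.05 and a fold change above 1.5. The index of all 113298 bins was tested with limma 3.58.1. All tests were two-sided. DESeq2 1.42.0 was an alternative, and further ones were other scaling, no filter, a term for the low-share libraries or leaving them out, the replicate number as a block, and leaving out single NC ULB libraries. Scripts were tested on simulated data. All 10 members are named. Of the other chemokine genes, the 2 most abundant of each list and those called in 2 or more ATs in 1 direction are named, and CCR7 and CXCL9 were added after their values were seen. The members and gene lists were chosen with earlier results of these data known. The replicate number was checked as a pairing of ATs within a diet by correlating deviations from the group means. All pairs were above 0.1 in 4 of 18 comparisons (NC GOM and ULB, WG MAD and ULB, WG RAD and ULB, WL MAD and RAD). That rule is strict, and partial pairing fails it. Between WG GOM and WG MAD 35 of 36 pairs passed, with a median r of 0.664 for the same number and −0.102 for others. The same-number median was the higher one in every comparison. The paper took the 4 ATs from each carcass, while the main tests between ATs treated libraries as independent. Diets were compared between different pigs. Some upstream sequences and 1 receptor gene are not reported here.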

Additional observations from a re-analysis of the deposited data

Results flagged for a closer look

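In groups of 4 to 10 samples, Dixon's test at its 95% level flagged 8 of 120 combinations of a group and a member, counting expression and the A-B index, where chance alone flags about 1 in 20. Expression gave 3 of them. NC GOM replicate 8 had 5.88 TPM of CCL8 (others 0.268 to 2.86) and 68.0 TPM of CXCL10 (others 2.39 to 22.6), so 1 library was high for both genes. WL MAD replicate 1, one of the libraries rich in B cell markers, had 13.6 TPM of CCL8 (others 0.8295 to 5.92).

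In the A-B index, NC ULB replicate 5 stood apart for CCL8 (−4.54, others −3.59 to −3.26) and for CCR2 (5.90, others 4.03 to 4.45), and NC ULB replicate 7 for CCL2 (−2.39, others −3.10 to −2.94). WL MAD replicate 10 had −1.63 at CXCL12 (others −0.920 to −0.211), and WL RAD replicate 7 had 3.56 at CCL21 (others 4.70 to 5.57).

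The change from WG to WL differed among the 4 ATs by the interaction test of edgeR for CCL19 (adjusted p = 0.00238), CXCL12 (0.00522), CXCR4 (0.0123), CXCL10 (0.0137), CCL21 (0.0271) and CCL5 (0.0384). The changes in GOM, MAD, RAD and ULB were −0.11, 1.303, −0.01 and 0.23 for CCL19 and 0.01, 0.56, −0.36 and −0.15 for CXCL12, and MAD was the AT with the highest change for all 6 genes.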

How the results depend on the processing

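Of 78 expression calls and 54 index calls on members, 24 and 27 held under every alternative. Higher calls from NC to WG numbered 10, and 5 without the low-share libraries and 4 with a term for that set. From WG to WL, 5 higher calls became 0 without the low-share libraries, with that term and without the 4 libraries rich in B cell markers, and 2 lower calls became 3 with DESeq2 and 1 with the term. From NC to WL, 13 higher calls became 2 and 2 lower calls became 1 without the low-share libraries, which also took calls between ATs from 46 to 28 and interaction calls from 6 to 0, as did leaving out the marker-rich libraries for the interaction. Index calls between diets numbered 12, and 6 with quantile normalization and 23 at a difference above 0.5. Super-enhancers alone gave 27 of the 173 pairs of a gene and a region. Leaving out single NC ULB libraries gave 10 to 11 higher calls from NC to WG, 13 to 14 from NC to WL, 44 to 47 calls between ATs and 10 to 13 index calls between diets. In MAD the sign turned without the low-share libraries for CXCL10 from NC to WL (−0.0063) and, from WG to WL, for CCL21 (−0.0191), CCL5 (−0.0705) and CXCL10 (−0.82), the last also without the marker-rich libraries (−0.23). The cause of these losses was not tested, and fewer libraries entered the fits that leave some out.

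With the replicate number as a block, higher calls were 5 from NC to WG and 3 from WG to WL, lower calls 4 from WG to WL and 1 from NC to WL, and index calls between diets 6. Diets were compared between different pigs, so the block pairs no samples there. In the comparisons of ATs where all pairs were above 0.1, the block ended the calls of CXCL12 (0.61) and the CCR2 row (−0.98) between NC GOM and NC ULB. It also ended that of CCL5 (−0.52) between WG MAD and WG ULB.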
